A study of Mus musculus with 18 samples.

Results

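The genes of sodium, potassium and calcium channels were followed in small intestinal crypts of mice that had lost the arginine methyltransferase PRMT1 from the intestinal epithelium. They were chosen by symbol, as the Scn genes for the pore (Scn1a and the like) and beta subunits (Scn2b and the like), every Kcn gene, and the Cacna, Cacnb and Cacng genes, leaving out the long noncoding RNA Kcnq1ot1. This gave 138 of the 55335 genes counted, of which 60 had enough counts to be tested. The KO mice carried a LoxP-flanked Prmt1 gene and a villin-driven CreERT2, a Cre recombinase that acts in epithelial cells once tamoxifen is given. The WT mice were littermates with the LoxP-flanked gene and no Cre, and they received the same tamoxifen (2 mg per injection). Mice were 8 to 12 weeks old, and crypts were collected 2, 7 and 14 days after the first injection, with 3 mice and so 3 libraries for each genotype and day, 18 in all. Mice collected on day 2 had 2 injections, and those of days 7 and 14 had 5.

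Voltage-gated channels open when the voltage across the cell membrane changes, and let sodium, potassium or calcium ions pass. Each has a pore subunit and, in many cases, auxiliary subunits that set how much of it reaches the membrane and how fast it opens and closes. In the gut epithelium, potassium channels keep the driving force for chloride secretion, and enteroendocrine cells (EECs), the hormone-secreting cells of the epithelium, are electrically excitable and use sodium and calcium channels to release hormone. The symbols also take in genes that are not voltage-gated channels. The inward rectifier genes (Kcnj), the K2P background channels (Kcnk) and part of the calcium- or sodium-activated channels (Kcnn, Kcnt) are not opened by voltage, most Cacng proteins are better known as partners of glutamate receptors, and 4 members are antisense RNAs.

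Libraries held 12844642 to 31493484 counts, and the channel genes together took 0.0471% to 0.0698% of them. Values are given as CPM, which are counts scaled to a common library total after normalisation between libraries,, and as RPKM (CPM per kilobase of gene length) where levels of different genes are compared. A gene is said to have risen, fallen or been called where edgeR's quasi-likelihood test, adjusted by the Benjamini-Hochberg method over all 21349 genes tested, gave an adjusted p under 0.05. Prmt1 itself was at 13.1 to 17.4 CPM in the 9 KO libraries and 20.2 to 30.6 CPM in the 9 WT libraries, and was called lower in KO on each day, by 1.85-fold on day 2, 1.5-fold on day 7 and 1.64-fold on day 14. All 8 crypt epithelium markers were detected, with summed levels of 5291 to 9599 CPM. Markers of other compartments were far lower, at 49.4 to 119 CPM for 9 immune markers, 37.8 to 71.1 CPM for 8 markers of smooth muscle and pacemaker cells, and 8.85 to 107 CPM for 8 markers of endothelial cells and fibroblasts.

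Most of the channel RNA in the crypts came from a few potassium channel genes. Kcne3, the auxiliary subunit that holds KCNQ1 open in secretory epithelia, had the highest level, with a mean of 35.4 RPKM over the 18 libraries. Next came Kcnq1, the pore subunit of that channel, at 24.1 RPKM, then the background channels Kcnk1 at 19.4 and Kcnk5 at 17.9 RPKM, and Kcnn4, a calcium-activated channel of secretory epithelia, at 12.9 RPKM. These 5 genes made up 71.4% of the summed RPKM of all 138. Only 17 members exceeded 1 RPKM, and among pore subunits of voltage-gated potassium channels the next after Kcnq1 was Kcnh6, at 2.01 RPKM. Of the 78 members that were not tested, 6 had no count in any library and 41 had at most 3 counts in every library. A count of 0 allows a level of up to 0.105 to 0.227 CPM, depending on the depth of the library, for counting error only.

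**Figure D1:**
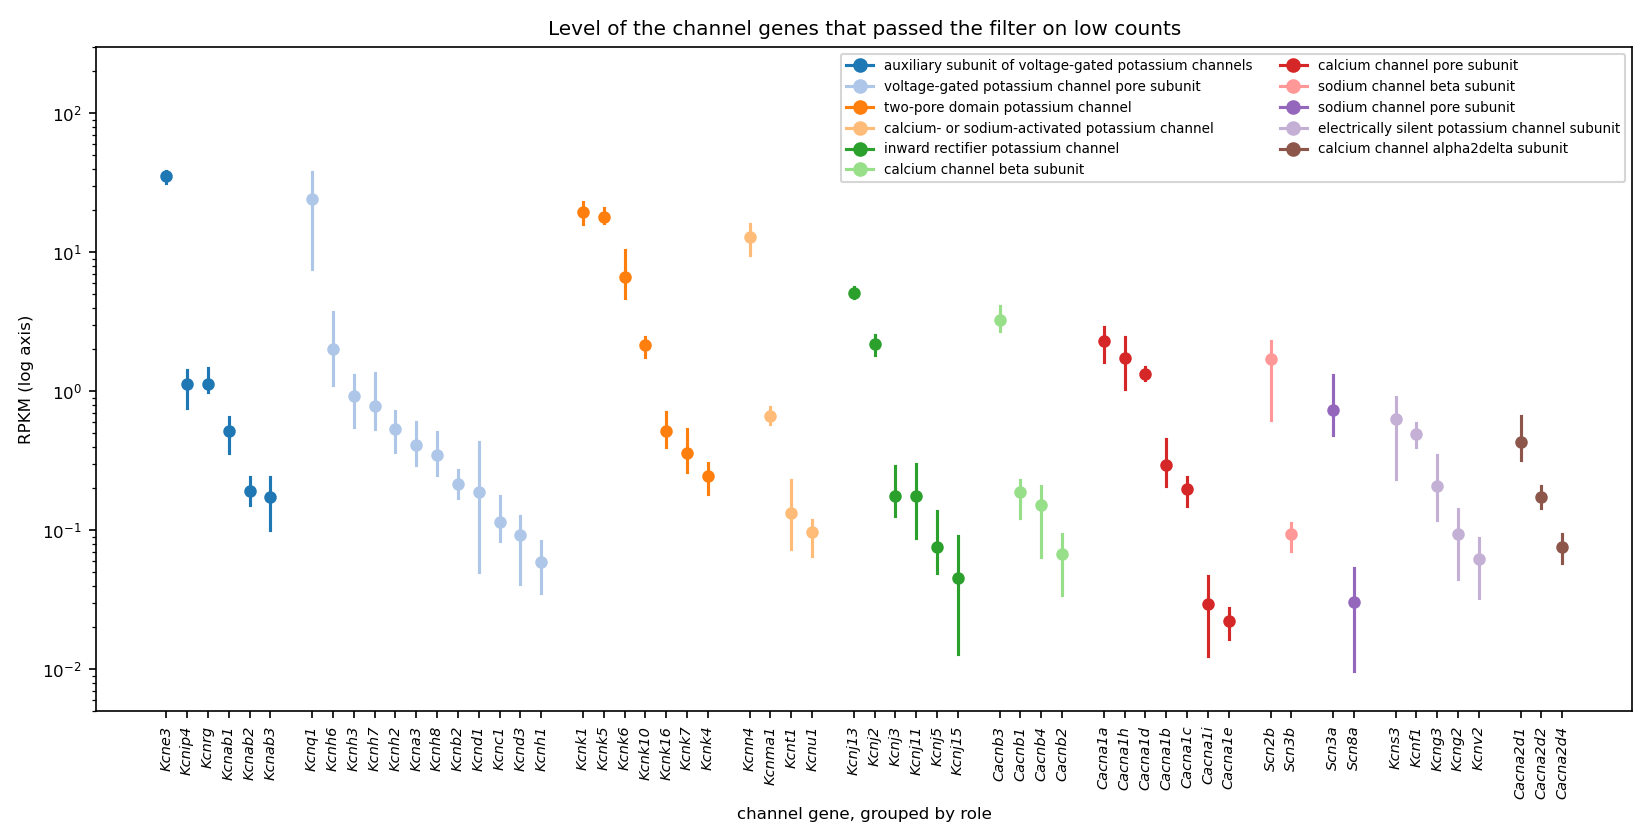
Mean level (RPKM, log axis) of 58 channel genes with enough counts to be tested, grouped by role. Points are means of 18 libraries and lines run from the lowest to the highest of the 6 group means. Kcne3, Kcnq1, Kcnk1, Kcnk5 and Kcnn4 lie above 10 RPKM, and the line of Kcnq1 is the longest of these 5.

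On day 2, no channel gene was called in KO against WT by edgeR's quasi-likelihood test or by DESeq2, although 4 of the 60 had an unadjusted p under 0.05, against 3.33% of all genes. Over all genes, 0.0328% were called on that day. The KO and WT libraries of 8 channel genes (13.3%) did not overlap, against 8.16% of all genes. The median log2 fold change of the channel genes was 0.07, and that of all genes was -0.005.

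On day 7, 11 of the 60 channel genes were called (18.3%, against 17.3% of all genes). Of these, 7 rose (11.7%, against 7.11% of all genes) and 4 fell (6.67%, against 10.2%). Kcnh7, Kcnk6, Cacna2d1, Kcnh6 and Scn3a were among those that rose, and those that fell were Kcnq1, Kcns3, Scn2b and Cacnb4. Libraries of the 2 genotypes did not overlap for 25 channel genes (41.7%, against 33.6% of all genes). The share called was thus close to that of the whole transcriptome. The median log2 fold change was 0.18 for the channel genes and 0.02 for all genes. Without KO replicate 1 the number called was 6 (against 9.43% of all genes in that fit), and without WT replicate 2 it was also 6 (against 12.1%).

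On day 14, 7 channel genes were called (11.7%, against 7.92% of all genes). Kcnj11, Scn3a, Kcnh6, Cacna2d1 and Kcnh7 rose (8.33%, against 3.23%), and Kcnq1 and Scn2b fell (3.33%, against 4.69%). The libraries did not overlap for 20 channel genes (33.3%, against 26.5% of all genes), of which 17 were higher in KO (12.4% of all genes were) and 3 lower (14.1% of all genes were). The median log2 fold change was 0.24, against 0.002 for all genes. Without WT replicate 1 the number called was 12 (against 6.08% of all genes in that fit), and DESeq2 called 11 (against 9.11%). With the replicate number as a block, which treats same-numbered libraries as pairs, the number was 10 (against 9.86% of all genes). These were the same 7 genes with Kcnh2, Kcnk10 and Kcnt1 added.

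By role, 14 of the 30 pore subunit genes of voltage-gated potassium channels were tested. Of these, 4 rose and 1 fell on day 7, when 17.3% of all genes were called, and 2 rose and 1 fell on day 14, when 7.92% were called. Whether this role differed from the others was not tested. Each of the other roles held at most 1 called gene per day and direction. No member was called on either day among the 6 tested auxiliary subunits of voltage-gated potassium channels, the 7 tested calcium channel pore subunits or the 4 tested calcium- or sodium-activated potassium channels. With the replicate number as a block, Kcnt1 of the last of these roles was called on day 14, as were Kcnh2 and Kcnk10 of other roles. None of the 8 Cacng genes or the 4 antisense RNAs had enough counts to be tested.

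**Figure D2:**
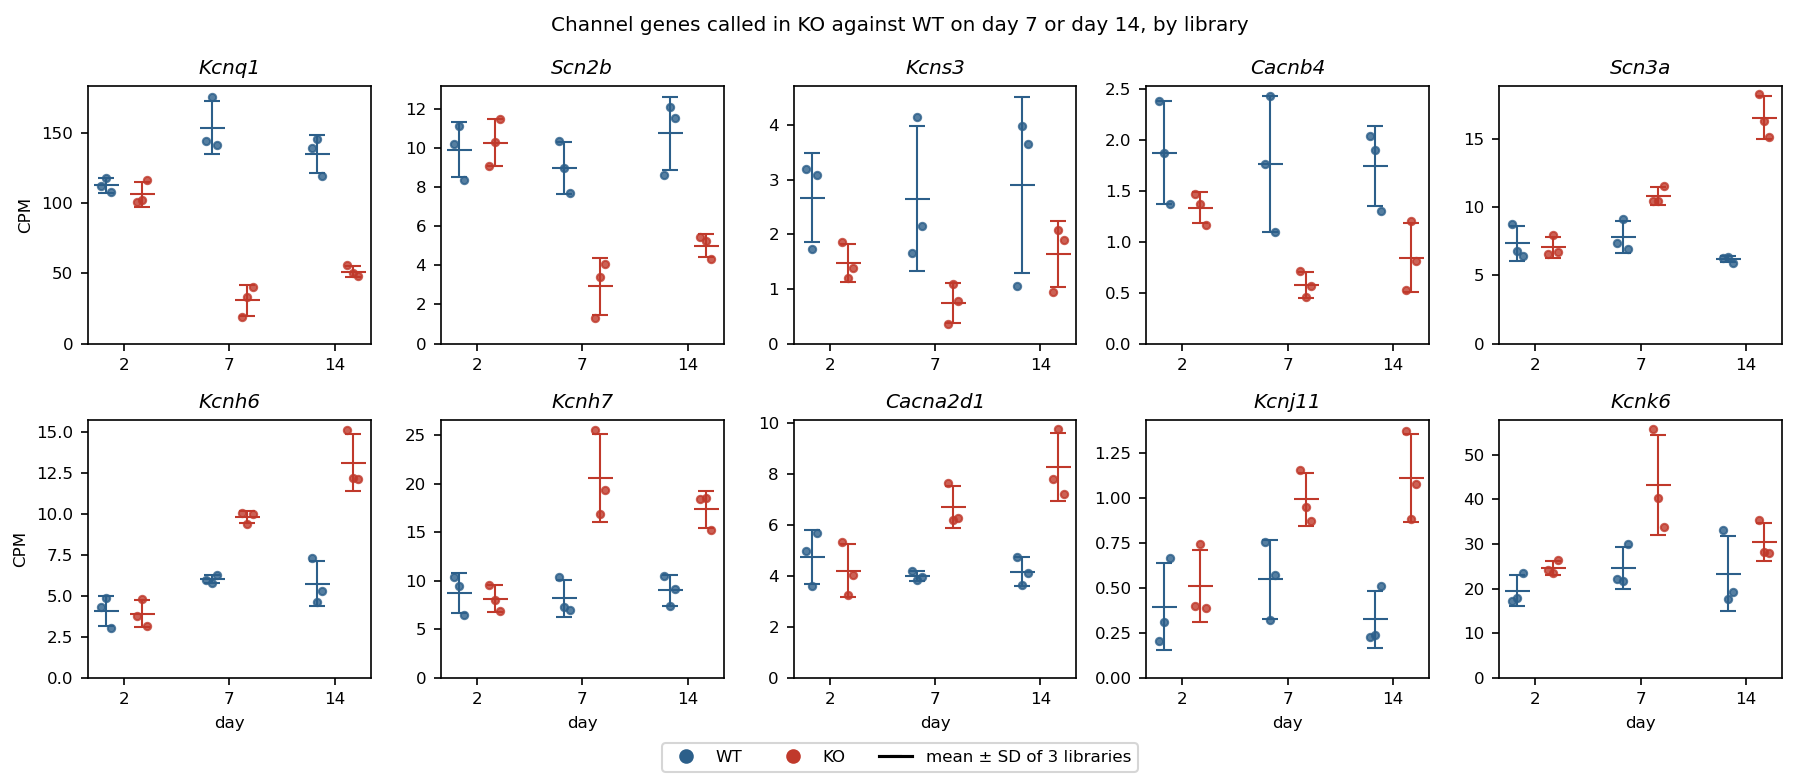
Level in CPM (vertical axis) of 10 channel genes called in KO against WT on day 7 or 14, by day (horizontal axis). Points are libraries, and bars are the mean and SD of 3 libraries of WT (blue) and KO (red). Kcnq1 and Scn2b lie lower in all 3 KO libraries on days 7 and 14, whereas Scn3a, Kcnh6, Kcnh7 and Cacna2d1 lie higher in all 3 on both days.

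Kcnq1 (ENSMUSG00000009545.14, mm10 chromosome 7, 143106362 to 143427042, plus strand) had the largest fold decrease among the channel genes called on either day. On day 2 it was at 101, 102 and 117 CPM in KO and 113, 118 and 108 CPM in WT. On day 7 the KO libraries were at 18.9, 33.1 and 40.5 CPM and the WT libraries at 144, 176 and 142 CPM. On day 14 KO was at 56.0, 50.1 and 48.1 CPM and WT at 139, 146 and 120 CPM. The genotypes overlapped on day 2 only, and on the later days the highest KO library was well below the lowest WT library. Kcnq1 was 4.99-fold lower in KO on day 7 (log2 fold change -2.32 ± 0.20 (SE, n = 3 against 3), edgeR adjusted p = 2.9e-07) and 2.63-fold lower on day 14 (log2 fold change -1.39 ± 0.19, edgeR adjusted p = 0.00014). In crypts, fewer cells of a type and less RNA per cell cannot be told apart. On day 7 the mean level of Kcnq1 in KO was 7.53 ± 2.69 RPKM (SD, n = 3), against 37.6 ± 4.62 RPKM in WT.

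Reads were counted without regard to strand, and 121 exonic bases of Kcnq1 (2.96%) lie opposite the antisense RNA Kcnq1ot1, a noncoding RNA known from imprinting of this region. Kcnq1ot1 was at 89.3, 126 and 248 CPM in KO on day 7 and at 474, 476 and 477 CPM in WT, a fall of 3.08-fold (edgeR adjusted p = 0.0036). On day 14 it was at 268, 250 and 166 CPM in KO and 542, 327 and 398 CPM in WT (edgeR adjusted p = 0.125). Reads of Kcnq1 and its antisense partner cannot be told apart in the shared bases.

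Kcne3 (ENSMUSG00000035165.14, chromosome 7, 100176502 to 100184869, plus strand), whose protein pairs with KCNQ1, was not called on any day. Its KO libraries were at 37.3, 66.7 and 64.1 CPM on day 7 and 69.9, 64.0 and 68.4 CPM on day 14, and its WT libraries at 64.4, 72.3 and 53.2 CPM and at 58.8, 68.9 and 61.0 CPM. The groups overlapped on both days. Its log2 fold change was -0.17 ± 0.19 (SE) on day 7 and 0.10 ± 0.19 on day 14, with intervals of 2 SE on either side from -0.55 to 0.20 and from -0.28 to 0.47. Whether Kcnq1 and Kcne3 differed in their change was not tested.

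The 3 other most abundant members did not pass the test on any day. Kcnk1, a background channel of epithelia, had log2 fold changes of 0.05 ± 0.15 (SE) on day 7 and -0.21 ± 0.15 on day 14. For Kcnk5, an acid-sensitive background channel, they were 0.07 ± 0.19 and 0.27 ± 0.19. For Kcnn4 they were 0.02 ± 0.16 and 0.30 ± 0.16, although on day 14 its KO libraries, at 83.6, 72.5 and 89.1 CPM, all lay above the WT libraries, at 65.6, 70.6 and 63.0 CPM. All channel genes together summed to 549.7 ± 35.2 CPM in KO (SD, n = 3) and 640.2 ± 22.9 CPM in WT on day 7, and to 632 ± 32.0 and 619.8 ± 12.7 CPM on day 14. With Kcnq1 left out the direction on day 7 turned, with means of 519 CPM in KO and 486 CPM in WT, and on day 14 the means were 580.2 and 485 CPM. These sums were not tested.

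Kcnh6 and Kcnh7 encode pore subunits of the ether-a-go-go related (ERG) potassium channels, which shape firing in excitable cells, and both rose on days 7 and 14. Kcnh6 (ENSMUSG00000001901.15, chromosome 11, 106008124 to 106034549, plus strand) was at 10.1, 9.37 and 9.999 CPM in KO and 5.97, 5.81 and 6.31 CPM in WT on day 7. On day 14 it was at 15.1, 12.2 and 12.1 CPM in KO and 7.33, 4.66 and 5.28 CPM in WT. All KO libraries exceeded all WT libraries on both days, and on day 2, at 3.19 to 4.79 CPM in KO and 3.05 to 4.89 CPM in WT, they overlapped. The rise was 1.63-fold on day 7 (log2 fold change 0.70 ± 0.20 (SE), edgeR adjusted p = 0.0175) and 2.31-fold on day 14 (log2 fold change 1.21 ± 0.20, edgeR adjusted p = 0.0007). The day 7 call was lost without KO replicate 1 (edgeR adjusted p = 0.0547), WT replicate 1 (edgeR adjusted p = 0.0578) or WT replicate 2 (edgeR adjusted p = 0.0554).

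Kcnh7 (ENSMUSG00000059742.10, chromosome 2, 62693414 to 63184287, minus strand) was at 25.6, 16.8 and 19.3 CPM in KO and 10.4, 7.28 and 6.96 CPM in WT on day 7. On day 14 its KO libraries were at 18.4, 18.5 and 15.2 CPM and its WT libraries at 10.5, 7.38 and 9.13 CPM. The genotypes did not overlap on these days. It rose by 2.49-fold on day 7 (log2 fold change 1.32 ± 0.21 (SE), edgeR adjusted p = 0.00026) and by 1.94-fold on day 14 (log2 fold change 0.96 ± 0.21, edgeR adjusted p = 0.0076). Of its exonic bases 4.57% overlap Gca on the opposite strand, a gene that itself was higher in KO by 1.85-fold on day 7 and 1.54-fold on day 14 (edgeR adjusted p = 0.00032 and 0.0111). The third ERG gene, Kcnh2, had log2 fold changes of -0.20 ± 0.22 on day 7 and 0.76 ± 0.23 on day 14 (edgeR adjusted p = 0.594 and 0.0535). With the replicate number as a block, Kcnh2 was called on day 14.

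Sequence upstream of the start was taken from RefSeq promoters on GRCm38.p6 (mm10), where 101 of the 138 members had an entry. It is shown for 4 of the 6 members that were called in the same direction on both days, Kcnh6, Kcnh7 and Cacna2d1 among those that rose and Scn2b among those that fell, so that their base composition can be read. Kcnq1 and Scn3a, the others of the 6, had no entry. Each runs 5′ to 3′ on the strand of the gene and ends before the first annotated base of the gene. Capitals mark matches on either strand to GGGCGG, known as the GC box, and to TTCAGCACC and GGACAG, which are letters of the left and right parts of the element that REST, a repressor of neuronal genes, is known to bind. These motifs were chosen with the sequences in view. The windows are chr11:106007898-106008123 on the plus strand, chr2:63184288-63184537 on the minus strand, chr5:15934441-15934690 on the plus strand and chr9:45117626-45117781 on the plus strand.
Kcnh6: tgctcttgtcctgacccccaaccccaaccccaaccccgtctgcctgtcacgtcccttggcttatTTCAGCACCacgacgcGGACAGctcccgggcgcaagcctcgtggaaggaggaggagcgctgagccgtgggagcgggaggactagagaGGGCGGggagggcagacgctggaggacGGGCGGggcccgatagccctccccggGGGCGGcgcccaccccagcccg
Kcnh7: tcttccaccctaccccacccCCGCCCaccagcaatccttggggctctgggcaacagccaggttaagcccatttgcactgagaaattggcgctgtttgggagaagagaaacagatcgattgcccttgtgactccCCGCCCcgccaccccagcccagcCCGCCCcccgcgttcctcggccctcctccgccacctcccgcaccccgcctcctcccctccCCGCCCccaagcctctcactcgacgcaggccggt
Cacna2d1: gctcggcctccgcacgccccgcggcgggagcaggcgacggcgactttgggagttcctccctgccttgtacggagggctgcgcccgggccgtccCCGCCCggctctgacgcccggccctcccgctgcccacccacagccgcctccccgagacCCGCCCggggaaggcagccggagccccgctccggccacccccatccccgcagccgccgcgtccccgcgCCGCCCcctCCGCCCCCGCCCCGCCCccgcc
Scn2b: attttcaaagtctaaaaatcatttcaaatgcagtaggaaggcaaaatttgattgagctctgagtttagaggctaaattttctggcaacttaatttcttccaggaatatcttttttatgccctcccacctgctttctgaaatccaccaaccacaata

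The sequence upstream of Kcnh6 held TTCAGCACC followed after 7 bases by GGACAG, at bases 65 to 86 counted from its 5′ end. Among 32851 RefSeq promoters, each searched over the 250 bases before its start, 99 (0.301%) held TTCAGCACC on either strand, 18.7% held GGACAG, and 11 held both on the same strand. The count of 11 set no limit on order or distance, so it is not a background for the arrangement upstream of Kcnh6. Kcnh6 was the only member among the 101 with TTCAGCACC. The GC box was found 3 times upstream of Kcnh6, 4 times upstream of Kcnh7 and 6 times, with overlaps, upstream of Cacna2d1, and 32.7% of all promoters held at least 1. Over the full 250 bases, G and C made up 70.8% of the Kcnh6 sequence, 67.6% of Kcnh7, 82.4% of Cacna2d1 and 38.4% of Scn2b, where the median of all promoters was 52.4%. Kcns3 and Cacnb4, called lower on day 7 only, had several entries each. Those of Kcns3 were at 72.8% and 47.2%, and those of Cacnb4 at 48.8%, 71.2% and 79.6%. Whether base composition went with the direction of change was not tested. These are matches of letters, and none was tested for binding. Whether the element that REST binds has a gap of 7 bases was not looked at.

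Kcns3 (ENSMUSG00000043673.11, chromosome 12, 11090202 to 11151056, minus strand) encodes an electrically silent subunit, which forms channels only together with other pore subunits. It fell on day 7, from 1.66, 4.15 and 2.15 CPM in WT to 0.356, 1.09 and 0.786 CPM in KO, with no overlap (log2 fold change -1.77 ± 0.48 (SE), edgeR adjusted p = 0.0157). The call was lost without KO replicate 1 (edgeR adjusted p = 0.0901) or WT replicate 2 (edgeR adjusted p = 0.0898). On day 14 the groups overlapped, at 0.949, 2.08 and 1.89 CPM in KO and 1.06, 3.99 and 3.66 CPM in WT.

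Among background and inward rectifier channels, Kcnk6 rose on day 7 and Kcnj11 on day 14. Kcnk6 (ENSMUSG00000046410.10, chromosome 7, 29221926 to 29232515, minus strand), a K2P channel, was at 55.7, 40.4 and 33.8 CPM in KO and 22.1, 21.7 and 30.0 CPM in WT on day 7 (log2 fold change 0.81 ± 0.22 (SE), edgeR adjusted p = 0.0143). The KO libraries were higher without overlap but spread widely, and the call was lost without KO replicate 1 (edgeR adjusted p = 0.0848), WT replicate 1 (edgeR adjusted p = 0.0654) or WT replicate 2 (edgeR adjusted p = 0.0654). On day 14 the KO libraries, at 35.5, 28.2 and 27.9 CPM, overlapped those of WT, at 33.1, 17.8 and 19.2 CPM, and without WT replicate 1 the difference was called (edgeR adjusted p = 0.0366).

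Kcnj11 (ENSMUSG00000096146.2, chromosome 7, 46093953 to 46100764, minus strand) encodes the pore of the ATP-sensitive potassium channel, which couples nutrient metabolism to electrical activity in endocrine cells, and Abcc8 encodes its regulatory subunit. Kcnj11 was at 1.37, 0.883 and 1.08 CPM in KO and 0.227, 0.237 and 0.510 CPM in WT on day 14, from 26, 14 and 16 counts in KO and 3, 6 and 11 counts in WT. The groups did not overlap, and the fold was 3.33 (log2 fold change 1.74 ± 0.46 (SE), edgeR adjusted p = 0.0231). The edgeR adjusted p was 0.0953 without KO replicate 1, 0.0516 without KO replicate 3, 0.068 without WT replicate 1 and 0.104 without WT replicate 2. On day 7 its KO libraries were at 1.16, 0.948 and 0.873 CPM and its WT libraries at 0.756, 0.319 and 0.569 CPM (log2 fold change 0.79 ± 0.41, edgeR adjusted p = 0.205). Abcc8 was at 5.65, 4.32 and 5.68 CPM in KO against 3.92, 3.26 and 3.37 CPM in WT on day 7, and at 6.32, 5.55 and 5.73 CPM against 3.55, 3.51 and 3.43 CPM on day 14. It was called higher on both days, by 1.47-fold (edgeR adjusted p = 0.029) and 1.68-fold (edgeR adjusted p = 0.0105).

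Of the sodium channel pore subunits, Scn3a, a channel known from developing neurons and endocrine cells, made up most of the signal, with 0.73 of the 0.83 RPKM summed over the 10 genes. Scn8a reached 0.03 RPKM, from 1 to 22 counts per library, and the other 8 pore genes were not tested. Scn3a lies in a cluster of sodium channel genes on chromosome 2 (65457118 to 65567627, minus strand, ENSMUSG00000057182.15). In that cluster Scn3a had 3434 counts over the 18 libraries, whereas Scn2a had 15, Scn1a 2, Scn9a 20 and Scn7a 32.

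On day 14 Scn3a was at 18.2, 16.3 and 15.1 CPM in KO and 6.27, 6.36 and 5.93 CPM in WT. The groups lay far apart, with a fold of 2.67 (log2 fold change 1.42 ± 0.16 (SE), edgeR adjusted p = 1.5e-05). On day 7 it was at 10.5, 10.4 and 11.5 CPM in KO and 7.38, 9.14 and 6.92 CPM in WT, again without overlap, and the fold was 1.39 (log2 fold change 0.47 ± 0.15, edgeR adjusted p = 0.0384). That call was weak. Without KO replicate 1, 2 or 3 the edgeR adjusted p was 0.0709, 0.0692 and 0.0774, and without WT replicate 1 or 3 it was 0.129 and 0.148. With no filter on low counts it was 0.142, and with only the 2 groups in the model it was 0.0944. On day 2 KO libraries were at 6.52, 7.93 and 6.69 CPM and WT libraries at 8.77, 6.81 and 6.43 CPM, with overlap. Scn8a had log2 fold changes of 0.74 ± 0.41 on day 7 and -0.06 ± 0.49 on day 14, neither of which was called.

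Scn2b, the main sodium channel beta subunit in these crypts at 1.71 RPKM, fell. Beta subunits are membrane proteins that modulate the pore and also take part in cell adhesion. Scn2b (ENSMUSG00000070304.12, chromosome 9, 45117782 to 45130070, plus strand) was at 1.29, 3.40 and 4.06 CPM in KO and 10.3, 8.95 and 7.66 CPM in WT on day 7, and at 5.43, 5.24 and 4.32 CPM in KO and 8.61, 12.1 and 11.5 CPM in WT on day 14. On day 2, at 9.05, 10.3 and 11.5 CPM in KO and 10.2, 11.1 and 8.36 CPM in WT, the groups overlapped, and later they did not. It was 3.06-fold lower on day 7 (log2 fold change -1.61 ± 0.27 (SE), edgeR adjusted p = 0.0004) and 2.15-fold lower on day 14 (log2 fold change -1.11 ± 0.26, edgeR adjusted p = 0.0126). The day 14 call was lost without KO replicate 3 (edgeR adjusted p = 0.0708) or WT replicate 2 (edgeR adjusted p = 0.0506). Thus the pore subunit Scn3a and the beta subunit Scn2b changed in opposite directions in the same libraries.

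Among calcium channels, 7 pore subunit genes were tested and none was called on any day. The highest were Cacna1a (P/Q type) at 2.30 RPKM, Cacna1h (T type) at 1.75 RPKM and Cacna1d (L type) at 1.34 RPKM, followed by Cacna1b at 0.30, Cacna1c at 0.20, Cacna1i at 0.03 and Cacna1e at 0.02 RPKM. Cacna1d, an L-type pore of endocrine cells, was at 21.2, 18.7 and 19.9 CPM in KO and 19.2, 20.5 and 16.8 CPM in WT on day 7, with overlap, and its log2 fold changes were 0.08 ± 0.12 (SE) and 0.21 ± 0.12 on days 7 and 14. Cacna1a had log2 fold changes of -0.49 ± 0.25 on day 7 and 0.14 ± 0.25 on day 14, and Cacna1h of 0.04 ± 0.22 and 0.44 ± 0.22. Cacna1b, an N-type pore of neurons, had log2 fold changes of 0.70 ± 0.28 and 0.84 ± 0.30 (edgeR adjusted p = 0.102 and 0.0962), and without WT replicate 1 that of day 14 was called (edgeR adjusted p = 0.0175). Cacna1c had log2 fold changes of -0.71 ± 0.30 and -0.23 ± 0.30. Its day 7 value was called without KO replicate 3 (edgeR adjusted p = 0.0168) and with no filter on low counts (edgeR adjusted p = 0.0437). Cacna1e and Cacna1i had at most 34 and 30 counts in any library, and their log2 fold changes had SEs of 0.71 to 1.20.

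Cacna2d1 and Cacnb4 were the auxiliary calcium channel subunits that were called. Cacna2d1, an alpha2delta subunit that brings pore subunits to the membrane (ENSMUSG00000040118.15, chromosome 5, 15934691 to 16374511, plus strand), was at 7.65, 6.18 and 6.29 CPM in KO and 4.21, 3.83 and 3.94 CPM in WT on day 7. On day 14 it was at 7.80, 9.78 and 7.22 CPM in KO and 4.76, 3.63 and 4.12 CPM in WT. There was no overlap on these days, and the rise was 1.67-fold on day 7 (log2 fold change 0.74 ± 0.21 (SE), edgeR adjusted p = 0.0173) and 1.99-fold on day 14 (log2 fold change 1.00 ± 0.21, edgeR adjusted p = 0.0052). The day 7 call was lost without KO replicate 1 (edgeR adjusted p = 0.0731), WT replicate 2 (edgeR adjusted p = 0.0554) or WT replicate 3 (edgeR adjusted p = 0.054).

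Cacnb4 (ENSMUSG00000017412.15, chromosome 2, 52428320 to 52676831, minus strand), a cytoplasmic beta subunit, fell from 1.76, 2.43 and 1.09 CPM in WT to 0.712, 0.456 and 0.568 CPM in KO on day 7 (log2 fold change -1.59 ± 0.35 (SE), edgeR adjusted p = 0.0039). On day 14 the KO libraries, at 0.527, 1.20 and 0.809 CPM, were again below those of WT, at 2.04, 1.90 and 1.30 CPM, but the change was not called (log2 fold change -1.05 ± 0.36, edgeR adjusted p = 0.0791). Of its exonic bases 15.99% overlap the antisense gene A430018G15Rik, which fell by 4.58-fold on day 7 (edgeR adjusted p = 0.0036). Cacnb3, the most abundant beta subunit at 3.28 RPKM, had log2 fold changes of -0.06 ± 0.15 and 0.25 ± 0.15 and was not called.

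**Figure D3:**
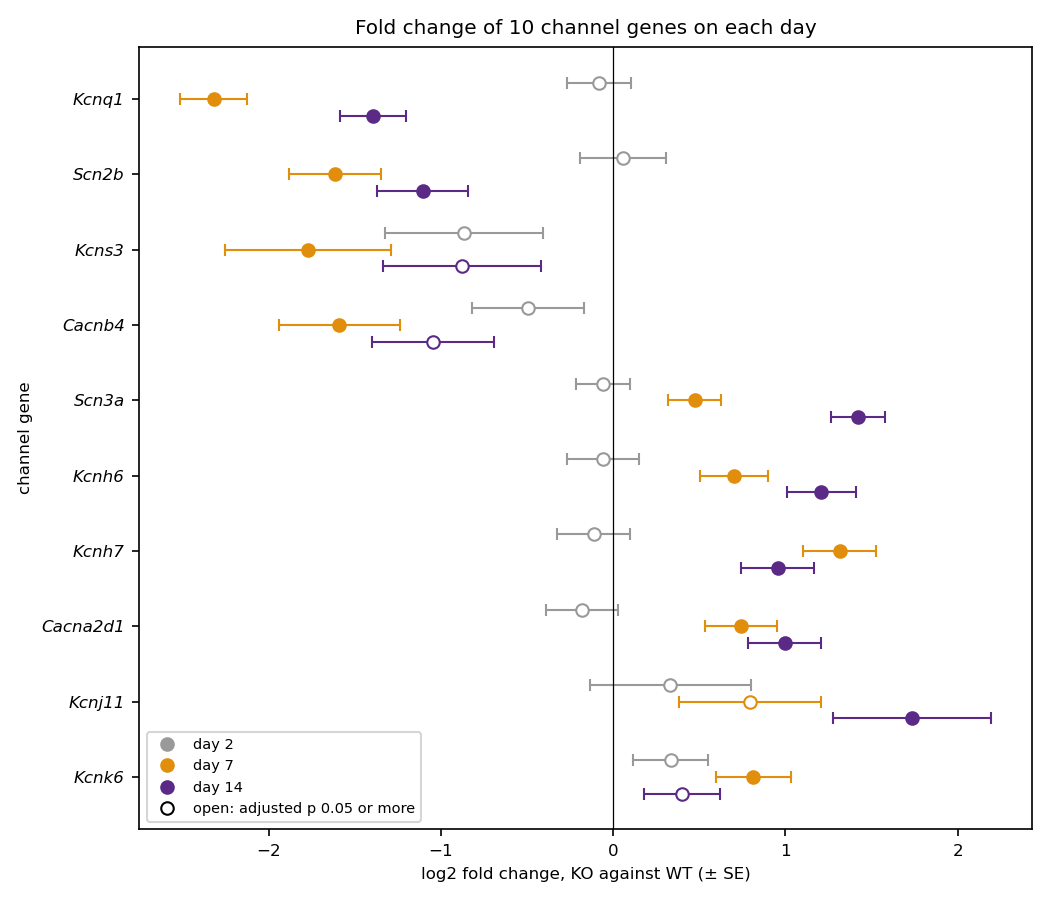
Log2 fold change of KO against WT (horizontal axis, ± SE) of 10 channel genes called on day 7 or 14, for each day (grey, day 2; orange, day 7; purple, day 14). Filled points have an adjusted p under 0.05 by edgeR. Kcnq1, Scn2b, Scn3a, Kcnh6, Kcnh7 and Cacna2d1 have filled points on both later days, and no day 2 point is filled.

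Proteins that partner these channels were followed in a list of 31 genes, of which 18 were tested. On day 7, 3 rose and 3 fell, and on day 14, 4 rose and 2 fell, with median log2 fold changes of 0.32 and 0.31, where 17.3% and 7.92% of all genes were called. Those that rose were Abcc8, Fgf14, an intracellular modulator of sodium channels (log2 fold change 1.85 ± 0.31 (SE) and 1.80 ± 0.33), Pex5l, a partner of HCN pacemaker channels (1.04 ± 0.27 and 1.05 ± 0.27), and on day 14 Akap5, a scaffold protein (1.44 ± 0.37). Those that fell were Lrrc26, an auxiliary subunit of the KCNMA1 channel (-1.33 ± 0.14 and -1.04 ± 0.14), Ank3, the ankyrin that anchors sodium and KCNQ channels (-1.15 ± 0.17 and -0.87 ± 0.17), and on day 7 Amigo1, an auxiliary subunit of voltage-gated potassium channels (-0.84 ± 0.14). Of 29 other cation channel genes of excitable cells, such as HCN, TRP and P2X genes, 26 were tested. Of these 5 rose and 2 fell on day 7, and 9 rose and 1 fell on day 14, with medians of 0.35 and 0.38, beside the same shares of all genes. Whether either list differed from other genes was not tested.

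Markers of several cell types moved along with the channel genes, and their part in the results was not tested. All 10 EEC markers were tested. Of these 8 rose on day 7 and 9 on day 14, with median log2 fold changes of 1.08 and 1.32, and none fell. Their summed level was 601 to 701 CPM in KO and 262 to 283 CPM in WT on day 7, 694 to 858 CPM and 238 to 299 CPM on day 14, and on day 2 the groups overlapped. Of 4 Paneth cell markers all fell on day 7 and 1 fell on day 14, with medians of -1.94 and -1.19 and summed levels on day 7 of 980.4 to 2567 CPM in KO and 5575 to 9700.4 CPM in WT. Enterocyte markers (6 genes) gave 1 rise and 1 fall on day 7 and 1 rise on day 14, with medians of 0.81 and 1.03. Their sums were 9630.4 to 15629.6 CPM in KO and 5889.8 to 8382 CPM in WT on day 7, and overlapped on day 14. Among 6 tuft cell markers 1 fell on day 7, and among 5 goblet cell markers 2 fell on day 7 and 1 on day 14. Tuft cell sums were 28.9 to 68.3 CPM in KO and 74.8 to 85.9 CPM in WT on day 7, and overlapped on day 14. Goblet cell sums were 8794 to 11345 CPM in KO and 12168 to 14646 CPM in WT on day 7, and 9311 to 10742 CPM and 11584 to 12004 CPM on day 14. The median log2 fold changes of the goblet list were nevertheless 0.05 and 0.13. Its called genes were Clca1 and Fcgbp on day 7 and Clca1 on day 14. Muc2, Tff3 and Spdef were not called, and their log2 fold changes were positive on both days. Among the 8 crypt epithelium markers, the stem cell genes Lgr5 and Olfm4 fell on day 7, by 1.59 and 1.30 on the log2 scale (edgeR adjusted p = 0.0013 and 0.0036), and none was called on day 14.

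Neurons and glia of the gut wall also express many of these channels. Their 10 markers summed to 8.04 to 12.3 CPM in KO and 4.79 to 7.49 CPM in WT on day 7, and to 9.01 to 11.5 CPM and 4.66 to 7.63 CPM on day 14, with no overlap on either day. On day 2 the sums overlapped, at 4.99 to 6.73 CPM in KO and 4.80 to 6.46 CPM in WT. Of these 6, among them Prph, Sox10, Gfap, Nefl and Hand2, had too few counts to be tested, though none was at 0 in all libraries. Of the 4 that were tested, 2 rose (Ret and S100b) and 1 fell on day 7, and 1 rose (Ret) and 1 fell on day 14. Their part in the results was not tested either. No immune marker was called, on day 7 and day 14 alike. Of the smooth muscle and pacemaker cell markers, only Kit, listed for pacemaker cells, was called, lower in KO on day 7. Of 7 tested markers of endothelial cells and fibroblasts, Pecam1 rose on day 7 (log2 fold change 1.29, edgeR adjusted p = 0.019) and none was called on day 14.

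**Figure D4:**
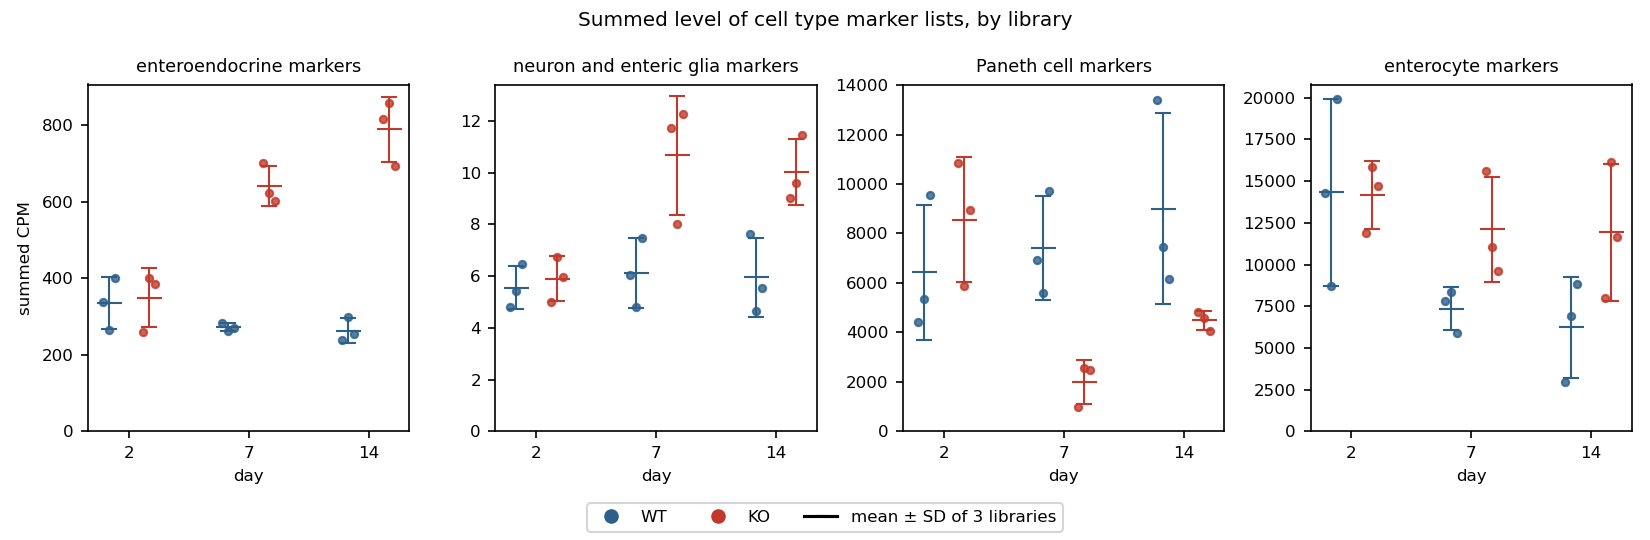
Summed level in CPM (vertical axes, each from 0) of 4 marker lists by day (horizontal axis), with points for libraries and bars for the mean and SD of 3 libraries of WT (blue) and KO (red). On days 7 and 14 the EEC sums of KO lie above those of WT, and the Paneth cell sums lie below.

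The WT groups showed how the channel genes varied with day in crypts that kept PRMT1. Between WT day 7 and WT day 2, 1 channel gene was called (1.67%, against 0.553% of all genes), and between WT day 14 and WT day 2 also 1 (against 1.61%). The call between days 7 and 2 was lost without WT day 2 replicate 1 or 3 or WT day 7 replicate 1 or 3, and that between days 14 and 2 without WT day 2 replicate 3 or WT day 14 replicate 1, each of which leaves 0 genes called. Without WT day 2 replicate 2, Cacna1h was also called between WT day 7 and WT day 2, which gives 2 genes (against 2.43% of all genes in that fit). Between WT day 7 and WT day 2, DESeq2 called 5 channel genes (against 9.45% of all genes in that fit), the replicate block 6 (8.38%) and a required average of 50 counts 4 (3.47%). The fit without a low-count filter (2.59%) and that of the 2 groups alone (2.87%) each called 3. Between WT day 14 and WT day 2 DESeq2 called 2 (against 8.51% of all genes), the replicate block 4 (7.13%), the fit without a low-count filter 3 (2.59%) and that of the 2 groups alone 0 (0.14%). Between WT day 14 and WT day 7 edgeR called no channel gene and 0.0796% of all genes. DESeq2 called no channel gene, and 4 had an unadjusted p under 0.05 in edgeR, against 5.18% of all genes. Day 2 mice had received fewer injections than those of days 7 and 14, so day and dose cannot be told apart in these comparisons.

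The KO effect itself was compared between days with an interaction term. Between days 7 and 2 it differed for 4 channel genes (6.67%, against 4.37% of all genes), among them Kcnq1, Scn2b and Kcnh7. Between days 14 and 2 it differed for 3 (5%, against 1.04%), Kcnq1, Scn3a and Kcnh6, and without WT day 2 replicate 1 or KO day 14 replicate 2 the number was 1 (against 0.51% and 0.6% of all genes). DESeq2 (2.31% of all genes) and the replicate block (1.65%) each called 5 channel genes, and the fit without a low-count filter (1.11%) called 6. Between days 14 and 7 edgeR called no channel gene and no gene at all (0% of all genes), with 4 channel genes at an unadjusted p under 0.05 (against 4.46% of all genes) and none called by DESeq2. A difference between the 2 later days was therefore not shown for any of them, including the larger fold of Kcnq1 on day 7 and of Scn3a on day 14.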

How the data were processed

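RNA-Seq was made from total RNA of small intestinal crypts after ribosomal RNA depletion, with 1 mouse per library, 3 libraries per group and 18 in all. The authors deposited raw counts per gene, and according to the submitters' processing notes STAR 2.7.3, HTSeq and featureCounts 1.6.4 were used with mm10. Per the file headers, fragments were counted on GENCODE release 23 genes without regard to strand, and those over several genes were counted for each. No column was left unused (0).

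The channel genes, the gene lists and the motifs were chosen with earlier results of these data known. The 20 genes the study set aside were left out, filterByExpr by group kept 21349 genes, counts were scaled by TMM, and all 18 libraries entered 1 model with a mean per group in edgeR 4.0.16 (R 4.3.3, quasi-likelihood, robust). P-values were adjusted by the Benjamini-Hochberg method at a threshold of 0.05, and SEs were derived from the F statistic. Named genes are members called in KO against WT on any day, the 5 with the highest mean RPKM, and all tested sodium and calcium pore subunits. Sequences came from RefSeq. Some genes that enter the counts are not reported here by name.

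The labels do not say whether same-numbered KO and WT libraries are pairs. The correlation of deviations between them was 0.159 to 0.227 on day 14 and 0.0478 to 0.381 on day 2. These values are low and do not show that the day 14 libraries were paired. Adding the replicate number as a block lost no day 14 call and gained 3. On simulated day 7 counts, 50.5% of 97 genes changed by 1 on the log2 scale and 86.7% of 98 genes changed by 2 were called. Alternatives were DESeq2 1.42.0, its size factors, other filters, keeping the 20 genes, smaller models, a replicate block and leaving out each library. Totals of 12844642 to 31493484 counts set the precision, and with 3 against 3 an exact permutation test could not go below 0.1, so none was used. Matplotlib 3.10.9 drew the figures.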

Additional observations from a re-analysis of the deposited data

Results flagged for a closer look

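The KO effect differed between days for Kcnq1, Scn2b, Kcnh7, Scn3a and Kcnh6, each by edgeR's test of the difference itself. Between days 7 and 2, the log2 effect of KO on Kcnq1 moved by -2.24 ± 0.27 (SE, adjusted p = 0.00011) and that on Scn2b by -1.67 ± 0.37 (adjusted p = 0.0136). Over the same interval the effect on Kcnh7 moved by 1.43 ± 0.30 (adjusted p = 0.0097). Between days 14 and 2, the effect on Kcnq1 moved by -1.31 ± 0.26 (adjusted p = 0.0164), that on Scn3a by 1.48 ± 0.22 (adjusted p = 0.0024) and that on Kcnh6 by 1.27 ± 0.29 (adjusted p = 0.0346).

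The differences of Kcnq1, Scn2b and Kcnh7 between days 7 and 2, and of Scn3a between days 14 and 2, were called without each of the 12 libraries of those days in turn. For Kcnh6 the call was lost in 9 of 12 such fits (adjusted p up to 0.108, without KO day 14 replicate 1) and also, with all libraries kept, in the model of only the 4 groups compared (adjusted p = 0.0854), and for Kcnq1 between days 14 and 2 in 2 of 12 (up to 0.0529, without KO day 14 replicate 2). Mice of day 2 had fewer tamoxifen injections than those of the later days, so day and dose cannot be told apart.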

How the results depend on the processing

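The number of channel genes called in KO against WT changed by over 1.5 times under DESeq2 on day 14, which gave 11 against 7 and shared all 7. It also did so in some fits without 1 library, which gave 6 to 13 on day 7 and 6 to 12 on day 14. On day 2 it stayed at 0 in such fits. The share of all genes is given in the results for fits with 6 on day 7 and 12 on day 14. For the other fits without 1 library it was not counted, so their numbers have no background. Between WT day 7 and WT day 2, where the main count was 1, DESeq2 gave 5, testing without a low-count filter 3, requiring an average of 50 counts 4, the replicate block 6, and a model of only the 2 groups 3, while leaving out 1 library gave 0 to 2. Between WT day 14 and WT day 2, where it was 1, DESeq2 gave 2, no filter 3, the replicate block 4 and the model of only the 2 groups 0, with 0 to 1 without 1 library. For the KO effect of day 14 minus that of day 2, where it was 3, DESeq2 gave 5, no filter 6 and the replicate block 5, with 1 to 4 without 1 library, and for day 7 minus day 2 leaving out a library gave 3 to 5. Among these fits without 1 library, the share of all genes was counted only for those that gave 1. Of the calls of genes named here in KO against WT, 106 values under the settings that kept all libraries stayed called and 3 did not, all of them Scn3a on day 7. With 1 library left out, 74 stayed called and 22 did not, and none changed direction. Cacna1e on day 7, at 0.38 and not called, was reversed to -2.0 without KO day 7 replicate 3 and at 0.94 without KO day 7 replicate 2, from at most 34 counts per library. The cause of these changes was not tested. The correlation of deviations between same-numbered KO and WT libraries was 0.0478 to 0.381 on day 2 and -0.159 to 0.206 on day 7. The replicate block within day gave 12 genes on day 7, with Scn3a lost (adjusted p = 0.0503), and 10 on day 14 (against 9.86% of all genes). For day 7 the share of all genes called in that fit was not counted, so the 12 have no background.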
